A study of Homo sapiens with 6 samples.

Results

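The cytosolic ribosomal proteins are the protein components of the ribosome that translates nuclear messenger RNA. They were taken as every array probe whose annotated symbol is RPL or RPS followed by a number, with an optional letter or a final L, or a stalk or RPSA symbol, leaving out the S6 kinases, the RPS4Y genes and pseudogenes. The rule gave 122 of 48784 probes, which represent 73 genes, and 70 of these genes were among the 9078 genes tested. RNA came from SW1353 cells, a human chondrosarcoma line often used in place of chondrocytes. Every culture, control or treated, went without serum for roughly 20 h, and 3 samples were treated for 6 h with 0.5 ng/ml of the inflammatory cytokine interleukin-1 alpha (IL-1), while 3 control samples were not. The titles name 2 title series of arrays: Allstars, with control and IL-1 replicates 1 and 2, and Sample, with control and IL-1 replicate 3. The labels do not say whether replicates are independent cultures, and the p-values therefore cover the spread among these 6 arrays only, some of which may be technical.

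Each ribosome holds a small (40S) subunit, which reads the message and is built with RPS proteins, and a large (60S) subunit, which joins amino acids and is built with RPL proteins. Their genes are transcribed at high rates in most cells, and the proteins are needed in matched amounts. Their messages typically begin with a C followed by an unbroken stretch of pyrimidines, the 5′ terminal oligopyrimidine (TOP) motif, through which mTOR signalling controls their translation. A few members have extra copies of the gene, such as RPL10L and RPL39L, which are known from male germ cells, RPL3L, known from heart and skeletal muscle, and RPS27L, a p53 target.

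Many of the genes share a kind of message start. The 30 bases around a RefSeq gene start (GRCh38.p14) are shown, 15 before it and the first 15 transcribed bases of exon 1. They are given for typical members, for those singled out by the comparison below and for copies beside their parents. The pyrimidine run from the start base is in capitals. For a gene with several annotated starts, as RPL10 and RPL13 with 3 each, the start with the longest run was chosen.
RPS6 (chr9:19380222-19380251, minus strand): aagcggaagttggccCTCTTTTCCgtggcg
RPL39 (chrX:119791616-119791645, minus strand): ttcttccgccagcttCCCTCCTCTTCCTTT
RPL41 (chr12:56116618-56116647, plus strand): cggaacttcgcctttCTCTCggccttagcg
RPS18 (chr6:33272060-33272089, plus strand): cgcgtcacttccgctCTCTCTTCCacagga
RPL13A (chr19:49487593-49487622, plus strand): cgacaaaacctcctcCTTTTCCaagcggct
RPL13 (chr16:89560667-89560696, plus strand): ttgcggggccgcttcCTTTCCgctcggctg
RPL22 (chr1:6199581-6199610, minus strand): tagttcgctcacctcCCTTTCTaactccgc
RPL37A (chr2:216498829-216498858, plus strand): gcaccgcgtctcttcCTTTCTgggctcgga
RPS3A (chr4:151099613-151099642, plus strand): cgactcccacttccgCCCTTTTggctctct
RPL10 (chrX:154398362-154398391, plus strand): caggcggaggagcgcCTCTTTCCCTTCggt
RPL10L (chr14:46651767-46651796, minus strand): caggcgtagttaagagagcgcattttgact
RPS27 (chr1:153990747-153990776, plus strand): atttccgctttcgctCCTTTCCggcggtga
RPS27L (chr15:63157463-63157492, minus strand): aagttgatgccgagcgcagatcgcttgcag
RPL36A (chrX:101390996-101391025, plus strand): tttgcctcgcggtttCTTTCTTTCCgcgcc
RPL36AL (chr14:49620612-49620641, minus strand): ctgtttcttccctttCCTgttaggcgagag

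Of the 73 genes 61 had a RefSeq promoter entry. A C at an annotated start followed by at least 4 pyrimidines was searched on the transcribed strand only. It was found in 43 of the 61 genes (70.5%), beside 5.14% of all 27305 genes with an entry. By start, it was found at 43 of 72 member starts, beside 4.07% of all 35116 starts. RPS6 starts with 9 pyrimidines and RPL39 with 19, while RPL10L and RPS27L start with a G and RPL36AL has a run of 3. The letters CGGAAG, the core of sites for ETS factors, on either strand between 250 bases before and 50 after the start, occurred in 40 of the 61 genes (65.6%) and in 22.6% of all genes. GGGA and CC with any 4 letters between them, which resembles NF-kB sites, on either strand occurred in 16 of 61 genes (26.2%) and in 29.0% of all genes, and TATAAA in 5 (8.20%, against 14% of all genes), RPL10L among them. These are matches of letters in a window, and a start that is annotated a base away from the true one would be missed.

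The probes that stood for most ribosomal protein genes were among the brightest on every array. Detection p was under 0.01 (here called well above background) on 111 or 112 of the 122 probes per array, out of 11954 to 13357 probes per array in all, and 69 of the 70 tested genes passed on all 6 arrays. The median member stood at the 98.8th to 98.9th percentile of tested genes on each array. In 10 of the 70 the control mean was below 10 (log2), and RPL37 and RPL10L stood at percentiles 15.5 and 6.98 in controls. Member probes carried 7.98%, 8.80% and 8.01% of the summed background-corrected signal of kept probes on control arrays 1 to 3, against 8.17%, 8.74% and 7.30% on IL-1 arrays 1 to 3. The groups overlapped, and the mean share was 8.26 ± 0.47% in controls and 8.07 ± 0.73% with IL-1 (SD, n = 3 each, exact permutation p = 0.9, two-sided, with 0.1 the smallest this design allows). In these bulk samples fewer cells and less RNA per cell cannot be told apart. Signals depend on each probe's own affinity, so levels of different genes are not ranked. The identity of the line was checked on chondrocyte markers, of which SOX9 and HAPLN1 were well above background on all 6 arrays, COL11A1 on 5, and ACAN, COL2A1, COL9A1, COL11A2, MATN3 and COMP on 0, so that 6 of 9 were not detected. Of the leukocyte markers only CD68 was detected, PTPRC, CD14 and CD3E being at 0 arrays, and of the epithelial ones EPCAM on 2 arrays. The IL-1 response itself was present: CXCL8, IL6, MMP1, NFKBIA and TNFAIP3 all rose (5 of 5, median difference 5.73 on the log2 scale, the value of MMP1). CXCL8 and NFKBIA had detection p under 0.01 on every array and differed by 7.76 and 2.98. IL6, MMP1 and TNFAIP3 reached that limit on 0 control arrays, so the filter kept them through the IL-1 arrays alone. Their differences start from background readings, and only lower bounds hold, of 122-fold, 35.2-fold and 18.4-fold.

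Against that response the ribosomal protein genes were nearly flat. The median difference, IL-1 minus control on the log2 scale after neqc (background correction and quantile normalization in limma), was -0.06 over the 70 genes and -0.11 over all genes tested, and the sign of the member median turned to 0.04 when array medians were equalised in place of quantile normalization. Apart from RPL10L, which rose 1.97-fold, all values lay between -0.38 (0.767-fold) and 0.32 (1.25-fold). The middle 50% of members spanned 0.11 log2 units, beside 0.40 for all genes and 0.20 for the 340 other genes at least as bright as the lower quartile of members (mean log2 signal of 12.2, here called the other bright genes). Their median level was 12.9, below the 13.7 of the members. The median size of a member's difference was 0.166 at a control mean of 8 to 10 and 0.204 at 10 to 12. It was 0.087 at 12 to 14 and 0.048 at 14 to 16, where 27 members lay. Whether signals near the top of the scale compress differences was not tested. Differences were below 0.25 in size for 63 of 70 members, 53.4% of all genes and 81.5% of the other bright genes. With limma and Benjamini-Hochberg adjustment over all genes (adjusted p under 0.05), 1 of 70 members rose, RPL10L, while 6.08% of all genes rose, and 0 members fell, while 2.94% of all genes fell. Of the other bright genes 3.53% rose and 1.18% fell. At an unadjusted p under 0.05, 1 member was higher and 1, RPS18, was lower, 2 of 70 beside 22.2% of all genes in either direction.

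The title series differ in signal level, and each holds as many IL-1 as control arrays, so the fit was repeated with title series as a block, which leaves every difference as it is and changes its error. The median standard error over members dropped from 0.113 to 0.073. With the block 1 member rose, RPL10L again (13% of all genes rose), and 7 fell, which is 10.0% of members (22.2% of all genes fell, and of the other bright genes 10.3% rose and 17.1% fell). The 95% interval of the difference lay within 0.5 of 0 for 65 of 70 members with the block and for 56 without it, against 48.3% and 18.1% of all genes and 88.8% and 60% of the other bright genes. Within 0.25 of 0 lay 39 of 70 with the block (7.87% of all genes, 35.6% of the other bright genes) and 10 without it (0.22% and 2.65%). For 69 of 70 members the interval stayed within 1, that is, inside a doubling or halving, in both fits (86.1% of all genes and 97.9% of the other bright genes with the block, 73% and 95.3% without), RPL10L being the exception. Every IL-1 array lay above every control array for 1 member (11% of all genes) and below for 6 members (17.1% of all genes): RPS18, RPL7A, RPL37A, RPL17, RPL5 and RPL36.

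**Figure D1:**
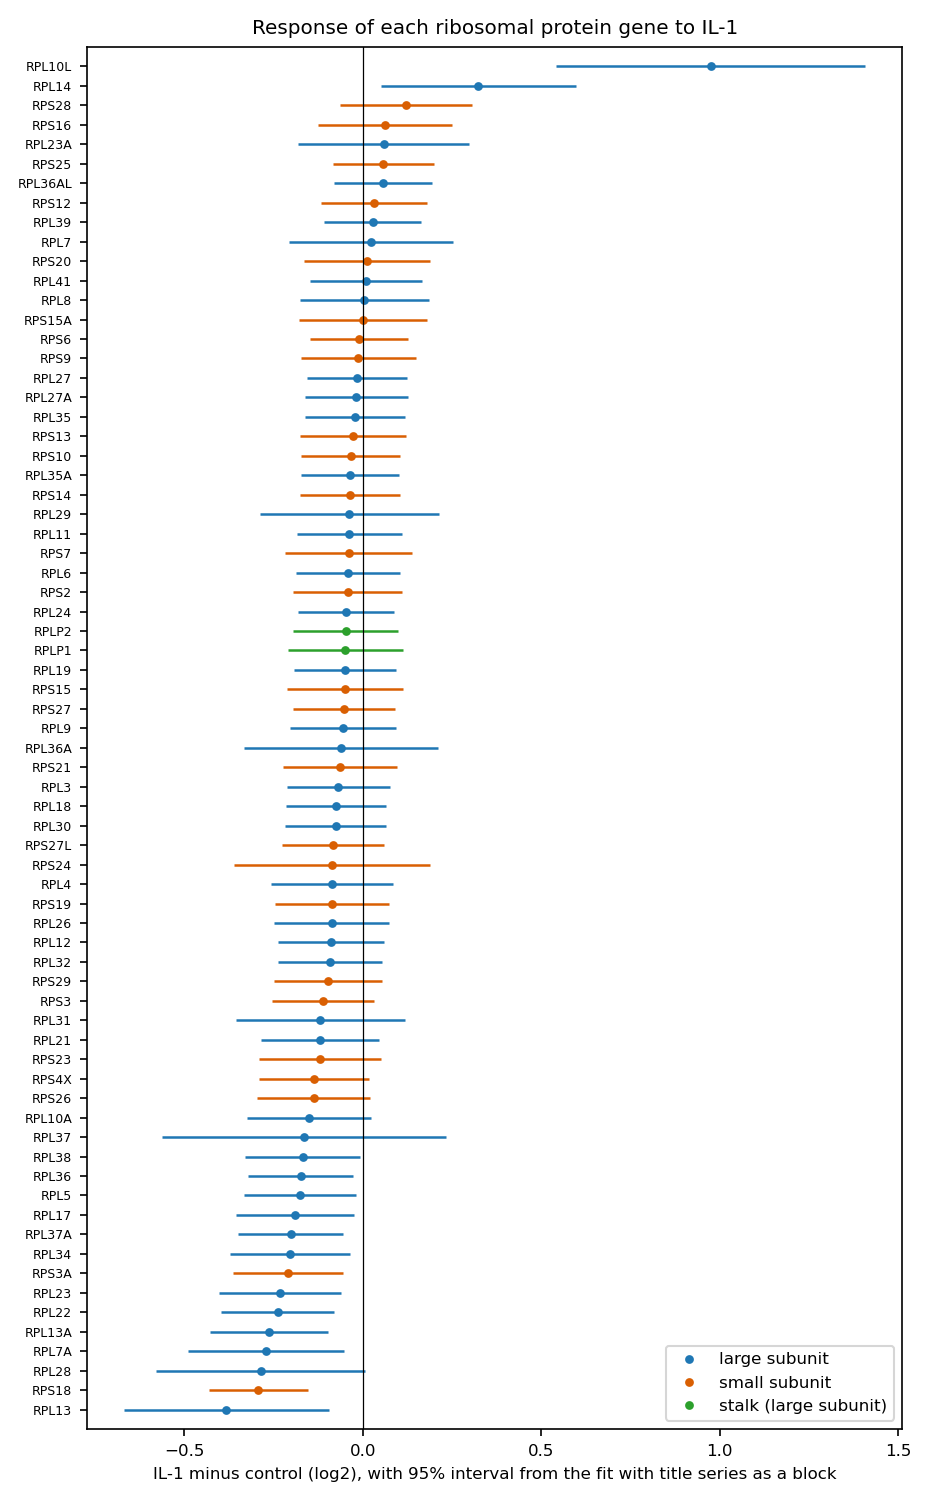
IL-1 minus control on the log2 scale for the 70 tested ribosomal protein genes (points), ordered by value, with 95% intervals (lines) from the fit with title series as a block, n = 3 arrays per group. RPL10L stands at 0.98, and the other 69 genes lie between -0.38 and 0.32.

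RPL10L, an intronless copy of RPL10, is the member whose signal rose. Its probe read 5.92, 6.45 and 6.26 in controls and 7.35, 7.30 and 6.90 with IL-1 (log2). All 3 IL-1 values lay above all 3 control values, in both title series. The mean went from 6.21 ± 0.27 to 7.19 ± 0.25 (SD, n = 3 each), a difference of 0.98 ± 0.23 (SE; limma adjusted p = 0.0373, and 0.00188 with title series as a block). The gene is dim, with deposited signals of 97.2, 91.4 and 208 in controls and 139, 115 and 284 with IL-1. It passed the detection limit on 2 control arrays and all 3 IL-1 arrays. The filter asks for 3 arrays, so RPL10L was tested only with the help of the IL-1 arrays, where it is higher. Its call without the block ended when array medians were equalised (adjusted p = 0.0755), with the authors' deposited log2 values (a difference of 0.51, adjusted p = 0.152) and when any array but IL-1 replicate 3 was left out (adjusted p 0.0639 to 0.184). It also ended under the wider detection filters (limma adjusted p = 0.0504 with detection p under 0.05 on at least 1 array, and 0.137 with no filter). These filters test more genes, and why the call ended was not tested. With the block it held in each fit run, including those that left out an Allstars array (adjusted p 0.00525 to 0.0118). The parent RPL10, a large subunit protein at the joint between the subunits, had 2 probes, and neither was well above background on any array, so parent and copy could not be compared. RPL10L and RPL10 are near-identical and have further copies in the genome, and without probe sequences it is not settled which of them the RPL10L probe reads.

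RPL14, a large subunit protein, had the next highest difference. It read 8.32, 8.50 and 8.63 in controls and 8.99, 8.88 and 8.54 with IL-1. Both Allstars IL-1 arrays were above all controls, while in the Sample series IL-1 was the lower, and the difference was 0.32 ± 0.17 (limma adjusted p = 0.336, and 0.0626 with the block). It passed on the Allstars arrays alone, with 0.53 (adjusted p = 0.00592), and its other kept probe differed by -0.13, the largest gap between probes of a member (0.452).

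Of the 7 members that fell with the block, 5 belong to the large subunit (RPL13, RPL13A, RPL22, RPL23 and RPL37A) and 2 to the small one (RPS18 and RPS3A). Their differences ran from -0.20 to -0.38, or from -0.10 to -0.28 after subtracting the median of all genes. RPS18, a small subunit head protein, read 13.44, 13.41 and 13.48 in controls and 13.13, 13.14 and 13.18 with IL-1. The groups did not overlap, and the spread within each was 0.03. The difference of -0.29 ± 0.09 had limma adjusted p = 0.0851 without the block and 0.00292 with it.

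RPL13A is a large subunit protein that is also known to leave the ribosome and silence inflammatory messages in interferon-treated monocytes. It read 11.68, 11.50 and 11.90 in controls and 11.32, 11.40 and 11.58 with IL-1. The groups overlapped across title series but not within them, and the difference was -0.26 ± 0.14 (limma adjusted p = 0.339, and 0.0162 with the block). RPL13, another large subunit protein, read 8.64, 9.12 and 9.34 in controls and 8.64, 8.68 and 8.63 with IL-1. The IL-1 values lay close to each other and near the lowest control, and the difference was -0.38 ± 0.19 (limma adjusted p = 0.308, and 0.0386 with the block). Without control replicate 1 the difference was -0.58, without control replicate 3 it was -0.23 and on the Allstars arrays alone -0.22, and none of these passed without the block. The other kept probe of RPL13 differed by -0.15 and did not pass.

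RPL22, a large subunit protein that also binds viral RNA, read 11.88, 11.94 and 12.32 in controls and 11.77, 11.61 and 12.04 with IL-1. RPL23, a large subunit protein that can bind the p53 regulator MDM2, read 11.64, 11.75 and 11.42 in controls and 11.55, 11.54 and 11.02 with IL-1. In both genes the Sample arrays stood apart from the Allstars arrays by more than the response (by 0.38 and -0.40), and the differences were -0.24 and -0.23 (limma adjusted p = 0.475 and 0.525, and 0.0216 and 0.0353 with the block). RPL37A differed by -0.20 and RPS3A by -0.21 (limma adjusted p = 0.283 and 0.386, and 0.0323 and 0.0345 with the block). The other probe of RPL37A differed by 0.13 and did not pass. The 3 probes of RPS3A differed by -0.21 to -0.01, and 1 of them passed with the block.

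**Figure D2:**
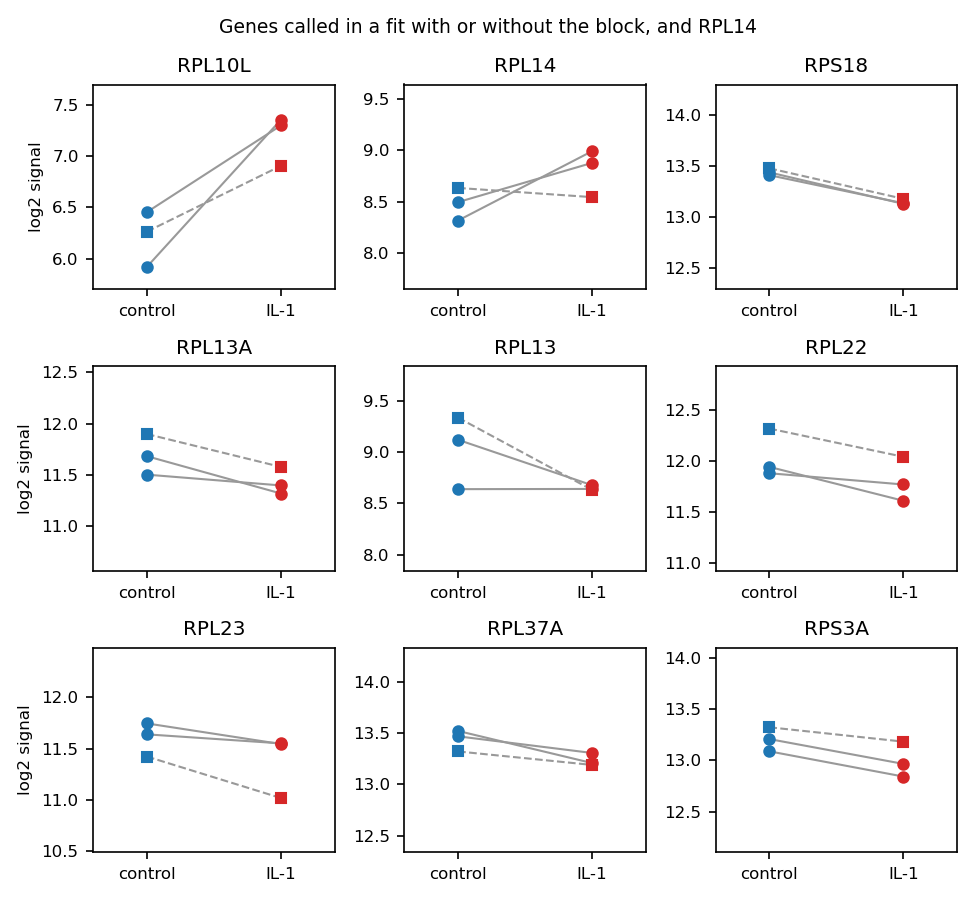
Log2 signal on each array for RPL10L, RPL14 and the 7 genes that fell with title series as a block. Circles are Allstars and squares Sample arrays, lines join arrays of the same replicate number, and each panel spans 2 log2 units. RPL10L rises in both series, and RPS18 runs from 13.44 to 13.15 on average.

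These falls depend on the scaling. With the block, 1 member rose and 7 fell under quantile normalization (13% and 22.2% of all genes). The counts were 1 and 1 with array medians equalised, where RPL13 was the one that fell (14.4% and 18.3% of all genes). They were 2 and 1 with cyclic loess, where RPL10L and RPL14 rose and RPS18 fell (16.3% and 13.9% of all genes), and 1 and 5 with the authors' deposited log2 values (12.2% and 23.4% of all genes). With the replicate number as a block they were 1 and 8, RPL28 joining the 7 (13.4% and 23.2% of all genes). Without control replicate 2 the count with the block was 2 falls, RPL13A and RPS18 (14.7% of all genes fell), and without control replicate 1 it was 4, RPL13, RPL22, RPL23 and RPS18 (15.3%). Without IL-1 replicate 1 it was 5, RPL13, RPL17, RPL22, RPL23 and RPS18 (19.5%), and without IL-1 replicate 2 it was 5, RPL7A, RPL13, RPL13A, RPS3A and RPS18 (19.3%). RPS18 was below 0 and called in 11 of the 28 fits run, the most among the members that fell, and RPL10L was called in 18 of 27.

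**Figure D3:**
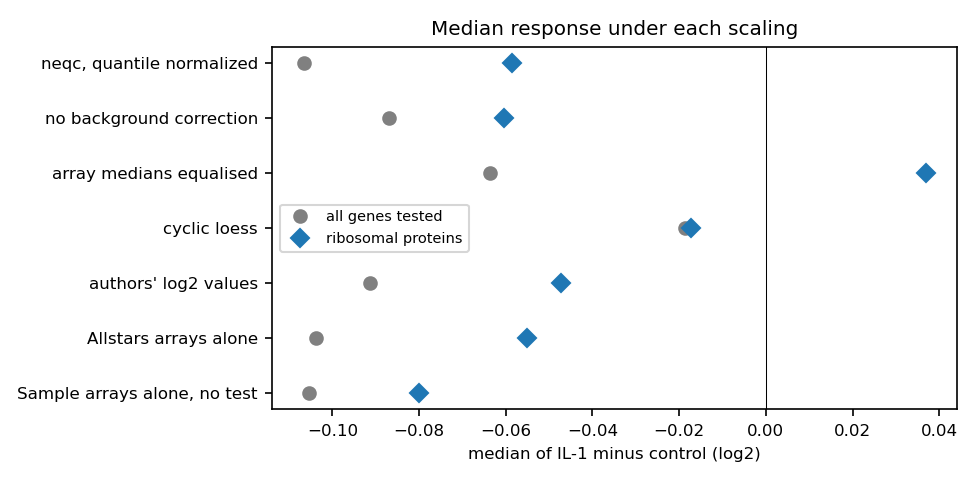
Median of IL-1 minus control (log2) over the ribosomal protein genes (diamonds) and over all genes tested (circles) under each scaling and in each title series. The member median lies between -0.08 and 0.04, above 0 with array medians equalised, and at or above the median of all genes in each setting shown.

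In the small subunit 0 of 26 tested members passed without the block and 2 fell with it (22.2% of all genes fell with the block), with a median of -0.05 and a range of -0.29 to 0.12. RPS6, the substrate that gave the S6 kinases their name, read 14.70, 14.60 and 14.72 in controls and 14.65, 14.60 and 14.72 with IL-1. Its groups overlapped throughout, and the 95% interval of the difference with the block ran from -0.15 to 0.13. RPS3, which also binds the NF-kB subunit p65, read 13.96, 13.85 and 13.92 in controls and 13.85, 13.78 and 13.77 with IL-1, with an interval of -0.26 to 0.03. RPS19, the gene most often mutated in Diamond-Blackfan anaemia, differed by -0.09, with an interval of -0.25 to 0.07.

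In the large subunit 1 of 42 members rose (RPL10L) and 0 fell without the block, and 1 rose and 5 fell with it (13% and 22.2% of all genes), with a median of -0.08. RPL5 and RPL11 form with 5S RNA the complex that binds MDM2 when ribosome assembly fails. RPL5 read 12.71, 12.75 and 12.96 in controls and 12.59, 12.68 and 12.63 with IL-1, without overlap, but did not pass (a difference of -0.18, limma adjusted p = 0.407, and 0.0775 with the block). RPL11 differed by -0.04, with an interval of -0.18 to 0.11 with the block. RPL41, the smallest ribosomal protein, differed by 0.01 (-0.15 to 0.17), and RPL39, which lines the exit tunnel, by 0.03 (-0.11 to 0.16). RPL28, RPL7A and RPL34 had the lowest values that passed in neither fit, at -0.29, -0.27 and -0.20.
The stalk, which recruits elongation factors to the large subunit, was represented by RPLP1 and RPLP2. RPLP1 differed by -0.05 (-0.21 to 0.11 with the block) and RPLP2 by -0.05 (-0.20 to 0.10). RPLP0, RPSA and RPS27A were not analysed here.

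Among copies and parents, RPS27L read 14.12, 14.17 and 14.04 in controls and 14.12, 14.11 and 13.86 with IL-1. Its parent RPS27 read 14.76, 14.67 and 14.53 in controls and 14.60, 14.64 and 14.57 with IL-1. Both overlapped between groups, with differences of -0.08 and -0.05. RPL36AL, an intronless copy of RPL36A, differed by 0.06 (-0.08 to 0.19 with the block) and RPL36A by -0.06 (-0.33 to 0.21). RPS4X, the X-linked gene with copies on the Y chromosome, differed by -0.14 (-0.29 to 0.02). RPL39L and RPL3L were well above background on 0 arrays, while their parents RPL39 and RPL3 were on all 6, and RPL3 differed by -0.07. Many members have processed pseudogenes that are near-identical to them, so a probe may read more than its named gene.

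Differences between the title series were larger than the response for 53 of 70 members, a share that was not counted over all genes. The series differences of members had a median size of 0.147, beside 0.318 for all genes. RPL21 read 11.86, 11.95 and 12.70 in controls and 11.74, 11.67 and 12.75 with IL-1. RPL7 and RPL29 likewise stood 0.84 and 0.75 higher on the Sample arrays, and RPS9 stood 0.41 lower. The response of RPL21 was -0.12 ± 0.33 without the block, and its interval with the block ran from -0.28 to 0.05. Whether the response differed between title series was tested as an interaction, and 0 members passed (limma, and 7 at an unadjusted p under 0.05), as did 0% of all genes (6.08% at an unadjusted p under 0.05). The signs in the Allstars and Sample arrays were unlike in 26 members (37.1%), against 23.9% of all genes.

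**Figure D4:**
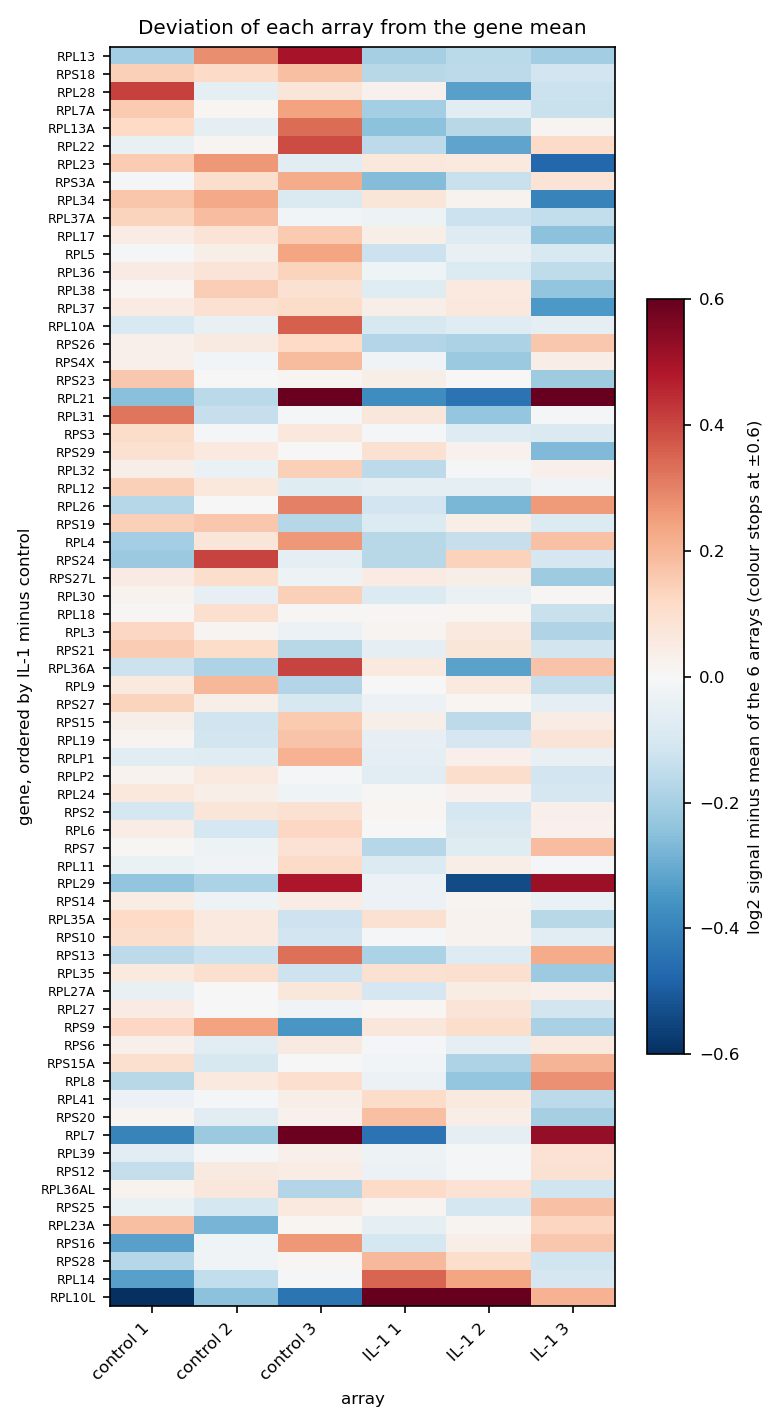
Log2 signal of each tested ribosomal protein gene on each of the 6 arrays, minus the mean of the gene over the arrays; red is higher and blue lower, with colours stopping at ±0.6. RPL10L separates the groups, while RPL21, RPL7 and RPL29 separate the Sample arrays (replicate 3) from the others.

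Several probes were kept for 31 members. The gap between the highest and lowest difference of a gene's probes had a median of 0.105 and a range of 0.00996 to 0.452, and 13 genes had probes on both sides of 0. These 13 were RPL3, RPL8, RPL9, RPL14, RPL17, RPL36, RPL36AL, RPL37A, RPL41, RPS15, RPS15A, RPS27 and RPS29. RPS29, with 4 probes, had differences from -0.34 to 0.06. Taken probe by probe, 1 of 112 kept member probes rose and 0 fell (5.98% and 2.59% of kept probes). With the block 1 rose and 12 fell (12.8% and 20.3%), among them probes of RPL10A, RPL17, RPS14 and RPS29 that did not stand for their genes. The brighter probes of those genes did not pass.

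The other parts of the translation machinery were counted in the same fit from lists of related genes, some of which share members. The shares of all genes to read them against are 6.08% that rose and 2.94% that fell without the block, and 13% and 22.2% with it. For counts at an unadjusted limma p under 0.05 without the block, the share is 22.2% of all genes in either direction. The mitochondrial ribosomal proteins, which build the separate ribosome of that organelle, had a median of -0.18 over 75 tested genes. Of these 0 rose and 1 fell without the block, and 3 rose and 29 fell with it (38.7%, against 22.2% of all genes and 10.0% of the cytosolic ones). MRPS18B, a small subunit protein, fell from 10.53 ± 0.02 to 9.93 ± 0.08 (SD, n = 3 each), a difference of -0.60 (limma adjusted p = 0.0172). The list was not chosen for brightness, and its median level was 9.57, against 13.7 for the cytosolic proteins.

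Of 17 messages other than ribosomal proteins that carry a TOP motif, among them elongation factors and PABPC1, 0 passed without the block (limma, and 0 at an unadjusted p under 0.05) and 1 with it, EIF3F, a subunit of initiation factor 3, which differed by -0.22, and the median was -0.09. Of 40 initiation factors 0 passed (limma, and 7 at an unadjusted p under 0.05), and with the block 3 rose and 7 fell. These included EIF5, which activates GTP hydrolysis by EIF2, at 0.53, and EIF2B4, a subunit of the nucleotide exchange factor of EIF2, at -0.49 (limma adjusted p = 0.00106 and 0.000287 with the block). EIF5A2, a relative of the translation factor EIF5A, rose with the block, with 0.46 (limma adjusted p = 0.0269). Among 11 elongation and release factors EEF2K, the kinase that inhibits elongation factor 2, fell from 9.41 ± 0.19 to 8.43 ± 0.25 (SD, n = 3 each), with non-overlapping groups (limma adjusted p = 0.0134), and with the block 1 rose and 2 fell.

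Of 64 ribosome biogenesis factors 1 rose, DDX52, an RNA helicase of small subunit assembly, by 0.97 ± 0.15 (limma adjusted p = 0.00670), and with the block 3 rose and 11 fell, with a list median of -0.06. Of 12 genes of RNA polymerase I and its factors 0 passed (limma, and 2 at an unadjusted p under 0.05), and 4 fell with the block, with a median of -0.24. They included TAF1C, a subunit of the promoter selectivity factor, at -0.38, POLR1D, a subunit shared with RNA polymerase III, at -0.37, and UBTF, which opens ribosomal DNA for transcription, at least 1.33-fold lower. Of 18 genes of the mTOR and S6 kinase axis 1 rose, RPS6KA3, by 0.96 ± 0.24 (limma adjusted p = 0.0472), and 1 fell, RPS6KA2, with -0.68 ± 0.16 (limma adjusted p = 0.0384), both being RSK kinases that phosphorylate RPS6, and with the block 3 rose and 4 fell. Of the 3 tested ribosomal proteins outside the naming rule, 1, RPL7L1, fell with the block, with a difference of -0.26.

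**Figure D5:**
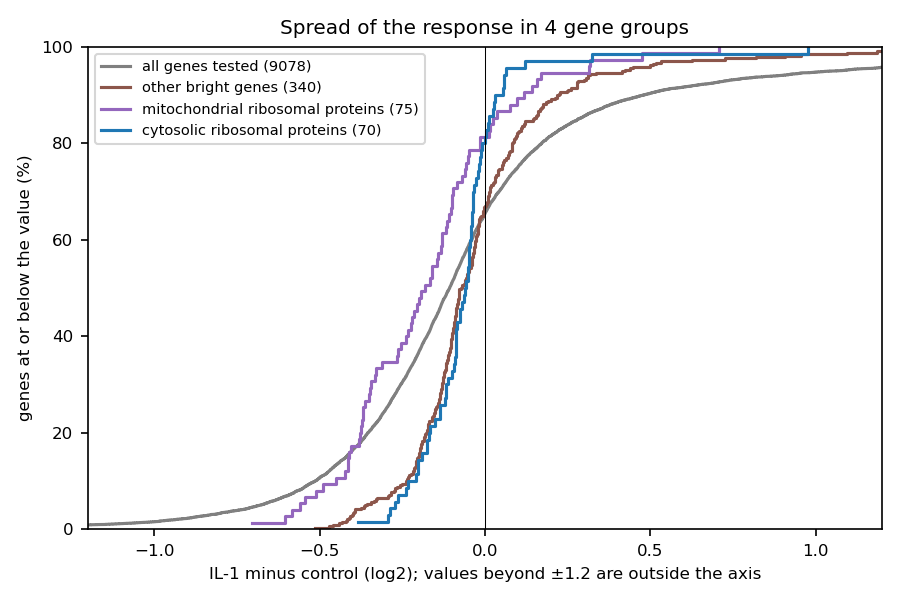
Cumulative share of genes (%) by IL-1 minus control (log2) for all 9078 genes tested, 340 other bright genes (mean log2 signal of at least 12.2), 75 mitochondrial and 70 cytosolic ribosomal proteins. The curve of the cytosolic proteins is the steepest of the 4, with medians of -0.11, -0.07, -0.18 and -0.06 in that order, the last turning to 0.04 with array medians equalised.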

How the data were processed

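Total RNA was hybridised to Illumina bead arrays. For every probe and array the authors deposited an intensity signal, in a table named as not normalized, beside a detection p-value, per the file headers. A second deposited table has the authors' values, taken as log2 because they follow log2 of the signals, with column medians of 5.86, 5.87, 6.50, 5.87, 5.86 and 6.49 (controls 1 to 3, then IL-1 1 to 3); the scaling between arrays is not stated. The submitters' processing notes list lumi, and its settings are not given in the sources used here. Median deposited signals were 60.3 to 95.3 per array.

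The neqc function corrected background and quantile normalized the signals (limma 3.58.1, R 4.3.3, offset 16). A probe was kept if 3 or more arrays had detection p under 0.01, which left 13017, of which 11408 had 1 gene in GEO's platform annotation. The brightest kept probe stood for its gene. The two-sided test was limma's lmFit and eBayes, with a trend of variance on signal and no block. Alternatives were blocks on title series or replicate number, 1 series alone, other scalings, the authors' log2 values, other filters and probe rules, no trend, weights for arrays and leaving out 1 array at a time. The members and lists were chosen with earlier results of these data known. Deviations from the group mean correlated at 0.53, 0.55 and 0.82 between arrays of the same number, where 1 and 2 come from the titles and 3 from the order of samples, and at 0.48 and 0.49 between numbers 1 and 2.

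Named genes were the members called in either fit among the 8 highest and 8 lowest differences, the stalk, copies with their parents, RPS3, RPS6, RPS19, RPL5, RPL11, RPL13A and RPL41, members whose probes differed in sign or that were not above background, from each list the 3 called genes of largest change, and the IL-1 check genes. RPL7, RPL7A, RPL10A, RPL21, RPL28, RPL29, RPL34, RPS9 and RPS14 were added after their values were seen. On simulated arrays (9078 genes, 3 against 3), changes of 0.25, 0.5 and 1 log2 units were called in 0%, 0% and 34% of cases without the block, and in 2%, 44% and 86% with it, where 4 unchanged genes were called too (0 without it). Most falls of members with the block were about 0.25 in size. At each size the simulation changed 50 genes drawn from all genes, while 3196 genes were called with the block in the data. With fewer changed genes the adjustment is stricter, and all genes had a median standard error of 0.113 with the block, against 0.073 for members. Neither the power for members nor the share of false calls among their falls can be read from it. The number of arrays limits the precision.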

Additional observations from a re-analysis of the deposited data

How the results depend on the processing

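Without a block, the count of members that rose (1) became 0 with array medians equalised, with the authors' log2 values and with each other detection filter, for genes and for probes. In those fits 2.74% to 5.87% of all genes rose. The filter on all 6 arrays leaves out RPL10L. The wider filters test more genes, but why the call ended there or in the other fits was not tested. The count was 3 with array weights (12.7% of all genes) and 2 on the Allstars arrays alone (11.6%), for genes and for probes. With cyclic loess and the block 2 genes and 3 probes rose (16.3% of all genes). The count of members that fell (0) became 7 genes and 12 probes with title series as a block (22.2% of all genes). It became 8 and 12 with the replicate block (23.2%). It became 8 and 12 with the block and no background correction (22.5%), and 5 and 9 with the block on the authors' log2 values (23.4%). It became 1 and 2 with the block and equalised medians (18.3%), and 1 and 1 with the block and cyclic loess (13.9%). Shares of all kept probes were counted only in the main fit and with title series as a block. The count of falls was 3 and 6 on the Allstars arrays alone and 5 and 8 with array weights, where 16.9% and 19.7% of all genes fell. Leaving out each array gave 0 to 1 rises and 0 falls without the block, with a median of -0.07 to -0.05. There 2.61% to 6.07% of all genes rose and 0.65% to 3.70% fell. With the block, leaving out each Allstars array gave 1 rise and 2 to 5 falls among genes, and 1 to 2 rises and 3 to 9 falls among probes. Of all genes 10.7% to 11.5% rose and 14.7% to 19.5% fell in these fits. Both block alternatives that left out arrays or background correction were chosen after seeing the data.

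The member median moved from -0.06 to 0.037 with equalised medians, with and without the block. It stayed below 0 under the other alternatives.

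In the other translation lists together, 2 of 227 tested genes rose (0.88%) and 3 fell (1.32%), against 6.08% and 2.94% of all genes. With title series as a block 13 rose and 57 fell (5.73% and 25.1%, against 13% and 22.2% of all genes). In the fits that follow, the shares of all genes that rose and fell stand in brackets. Rises and falls were 13 and 58 with the replicate block (13.4% and 23.2%). With the block they were 13 and 57 without background correction (13.1% and 22.5%) and 12 and 56 on the authors' values (12.2% and 23.4%). They were 15 and 45 with the block and equalised medians (14.4% and 18.3%), and 18 and 33 with the block and cyclic loess (16.3% and 13.9%). They were 10 and 43 on the Allstars arrays alone (11.6% and 16.9%) and 11 and 46 with array weights (12.7% and 19.7%). Without a block, 4 rose with cyclic loess (6.58% of all genes). Only 1 rose with equalised medians, the authors' values, no background correction, probe means, no trend, and each other detection filter. In those fits 2.74% to 6.28% of all genes rose. Falls were 5 with all kept probes (2.59% of kept probes) and with no trend (2.99% of all genes). Leaving out an array gave 0 to 3 rises and 0 to 7 falls without the block, and 7 to 11 rises and 39 to 46 falls with it. Of all genes 2.61% to 6.07% rose and 0.65% to 3.70% fell without the block, and 10.7% to 11.5% and 14.7% to 19.5% with it.

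Of 1805 member values called neither in the main fit nor under the alternative in question, 228 changed sign, and 0 called values reversed. No interaction of a member with title series passed in the 14 other fits that allowed the test. No test was possible on the Sample arrays alone, where the member median was -0.08. The members with a mean log2 signal of 8 to 10 on control arrays had a median standard error of 0.121 with the block and those of 14 to 16 one of 0.068, so a change must be larger in a dim gene to be called.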

Other observations

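The 60 tested members with a RefSeq promoter entry were set apart by the start of the message. The 42 with a pyrimidine start had a median difference of -0.06 (range -0.38 to 0.32), and the 18 without had a median of -0.06 (range -0.19 to 0.98, or up to 0.12 without RPL10L). Of the 7 members that fell with title series as a block 6 had an entry. All 6 had a pyrimidine start at an annotated start, though RPL13 not at each of its 3. RPL10L had none. The 39 with CGGAAG had a median of -0.06 and the 21 without it one of -0.09. These splits were chosen after the values were seen, and no test was made.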
